A study of Rattus norvegicus with 18 samples.

Results

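The genes described here form the NRF2 and antioxidant defence system of rat H9c2 cells, a myoblast line from rat heart. They were chosen by name as 32 genes, with earlier results of these data known. All 32 were found among the 17455 genes listed in both expression tables. In the lists of N6-methyladenosine (m6A) peaks they held 15 of 9866 peaks in the bufalin list and 13 of 9170 in the periplocin list. The cells, labelled wild type, were either left as controls or given bufalin or periplocin, both cardiotonic steroids that block the sodium and potassium pump. The first is a bufadienolide without a sugar and the second a cardenolide with sugars attached. Each of the 3 conditions had 3 immunoprecipitated (IP) libraries, pulled down with an m6A antibody, and 3 input libraries, 18 samples in 6 groups. The labels give neither a dose nor a time, and all groups share the 1 cell line. Whether the replicates came from different cultures is not given, so p-values measure only the spread between these samples, which may be technical. The title names the toxicity of both compounds to the heart, and m6A marking of RNA, as the subject of the study.

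NRF2, encoded by Nfe2l2, is the transcription factor that keeps up defence against oxidants and reactive chemicals. The adaptor Keap1 marks it for degradation in unstressed cells, and oxidants that modify Keap1 let NRF2 build up, pair with small Maf proteins and bind antioxidant response elements. Its activity is set largely by the amount and place of the protein, so the RNA of its targets is the usual readout. Many targets make or recycle glutathione and thioredoxin or supply the NADPH that both systems consume.

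NRF2 binds its targets at the antioxidant response element, and the core of this element is shown here for the genes that hold it near their start. RefSeq promoters of rat build GRCr8, from 250 bases before to 50 bases after each start site, were searched for the core element TGACNNNGC on both strands (GCNNNGTCA on the other). Promoters of 29 of the 32 genes were matched; those of Hmox1, Gsr and Prdx6 were not. The 29 genes had 32 promoters, as Gpx4 and Txnrd1 had several. The element was found in 8 of the 32 promoters, or 25%, each of a different gene, against 12.1% of all 33469 promoters of the same length and 14.8% of the 8924 promoters of genes whose mean reached 10. The lines give each match in capitals with its flanks in lower case, read 5′ to 3′ on the strand of the gene.
Gclm: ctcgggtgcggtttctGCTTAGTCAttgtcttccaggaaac
Gstp1: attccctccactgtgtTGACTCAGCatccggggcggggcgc
Me1: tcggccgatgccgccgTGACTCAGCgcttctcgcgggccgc
Nfe2l2: tgctccgactagccatTGACGCCGCctc
Prdx1: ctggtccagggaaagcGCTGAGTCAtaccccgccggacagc
Prdx5: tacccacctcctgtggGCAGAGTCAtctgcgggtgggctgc
Sod2: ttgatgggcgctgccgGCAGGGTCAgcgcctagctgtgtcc
Txnrd1: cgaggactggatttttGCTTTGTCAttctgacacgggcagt

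Positions in brackets cover each printed line with its flanks, while distances are those of the match. The matches began 172 bases before the start site in Gclm (chr2:213031947-213031987, plus strand) and 61 bases before it in Gstp1 (chr1:210769742-210769782, minus strand). That of Me1 began 167 bases before the start site (chr8:96540387-96540427, minus strand), that of Prdx1 135 bases before it (chr5:135383755-135383795, plus strand) and that of Txnrd1 78 bases before 1 of its start sites (chr7:22755958-22755998, minus strand). The matches of Sod2 (chr1:50050179-50050219, minus strand) and Prdx5 (chr1:213532004-213532044, minus strand) began 35 and 1 bases before the start. In Nfe2l2 the match lay after the start site (chr3:81028950-81028977, minus strand). In Gstp1, Me1 and Prdx1 the element overlapped the AP-1 motif TGANTCA, which 5 of the 32 promoters held, or 15.6%, against 7.33% of all promoters and 4.95% of those of genes whose mean reached 10. A match describes these letters only and shows no binding. Elements further from the start site were not searched for, so a gene without a match may hold one elsewhere.

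Values of single libraries were not analysed here. The tables hold, for each gene, the mean normalized count over libraries and the authors' log2 fold change with its standard error (SE). Group means were worked out from the mean and the fold change of each gene, and folds carry 95% Wald intervals from the authors' SE. Counts are not corrected for gene length, so levels are compared within a gene and not between genes. Which of the input and IP libraries entered these tables is not given. In control cells 7 of 13 cardiomyocyte markers had a fitted mean of at least 10, with Tnnt2 at 4549. Actc1, Myl7 and Nppb were at 0 or not listed, which were not told apart here. Of skeletal myoblast markers 7 of 10 reached a mean of 10, and of smooth muscle markers 4 of 4. Of fibroblast markers 4 of 6 reached it, with Col1a1 at 397245 and Dcn at 0 or not listed. Of endothelial markers 1 of 4 reached it, of leukocyte markers 2 of 4, and of epithelial markers 1 of 4, with Krt8 at 1057. Where several cell states are mixed in such a culture, fewer cells of a type and less RNA per cell cannot be told apart.

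No antioxidant gene passed an adjusted p of 0.05 with either compound as printed in the authors' deposited table, which holds results of DESeq2's Wald test. With bufalin 21 of the 32 had an adjusted p, and 0 of these were called, where 0.301% of all 3321 genes with an adjusted p were. With periplocin all 32 had one and 0 were called, where 0.538% of 12445 genes were. With p-values adjusted anew across every gene that had one, 0 of 32 passed in each comparison. Of all genes 12 of 12876 passed in this way with bufalin and 67 of 12906 with periplocin. At an unadjusted p under 0.05 stood 5 of the 32 with bufalin, or 15.6%, where 5.00% of 12876 genes did. With periplocin it was 4 of the 32, or 12.5%, where 6.25% of 12906 genes did. Among the 8422 genes whose mean reached 200, a level that 31 of the 32 reached, the shares were 6.23% and 7.41%. As the 32 were chosen with earlier results of these data known, their shares are no test against all genes. The antioxidant genes under this limit were Sqstm1, Hmox1, Prdx6, Tkt and Me1 with bufalin, and Sqstm1, Osgin1, Gclc and Prdx2 with periplocin.

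The median log2 change of the 32 genes was 0.01 with bufalin and -0.02 with periplocin, and the median of all tested genes was 0.00 in both. With bufalin 17 of 32 lay above 0 and with periplocin 14 of 32. The intervals were narrow for most: in each comparison those of 30 of the 32 genes lay wholly between a 1.5-fold fall and a 1.5-fold rise. Among the 8422 genes whose mean reached 200 this held for 95.3% with bufalin and 96.2% with periplocin. Hmox1 and Osgin1 were the exceptions in both comparisons, as the plot of RNA changes by role shows.

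**Figure D1:**
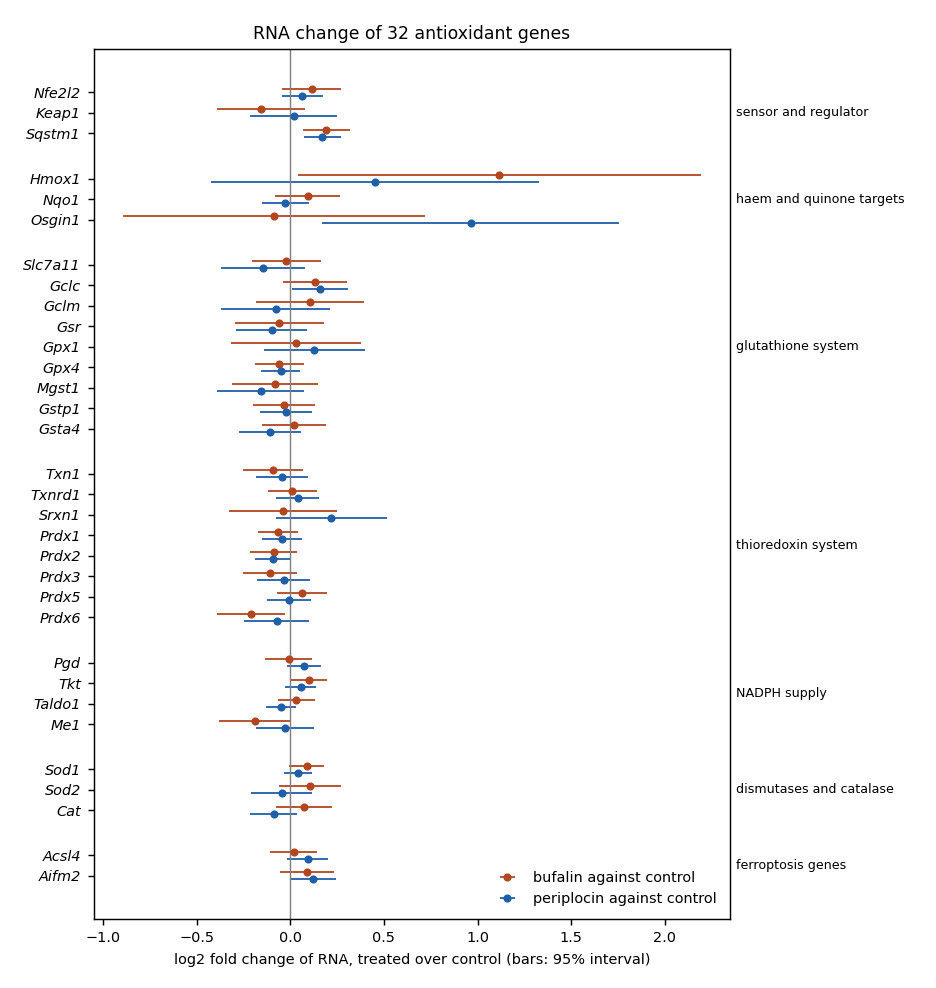
Log2 fold change of RNA, treated over control, for the 32 genes grouped by role; points are the authors' estimates and bars 95% Wald intervals, with bufalin in red and periplocin in blue. Points lie close to 0 except Hmox1 and Osgin1, whose bars are the widest.

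Among the sensor and its regulators, Nfe2l2 itself had a fitted mean of 5359 normalized counts in control and 5804 in bufalin-treated cells, a fold of 1.08 (interval 0.971 to 1.21). In the periplocin table the means were 5192 and 5425, a fold of 1.04 (interval 0.969 to 1.13). Its log2 changes in the authors' deposited table were 0.12 ± 0.08 (SE, unadjusted p 0.153) with bufalin and 0.06 ± 0.06 (unadjusted p 0.254) with periplocin. Keap1, the adaptor that holds NRF2 back, stood at 723 in control and 649 with bufalin, a fold of 0.897 (interval 0.762 to 1.05). With periplocin its means were 701 and 709, a fold of 1.01 (interval 0.860 to 1.19). The authors' deposited table gave Keap1 log2 changes of -0.16 ± 0.12 (SE, unadjusted p 0.188) and 0.02 ± 0.12 (unadjusted p 0.886). Both intervals of both genes included no change.

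Sqstm1, which encodes the autophagy receptor p62 that binds Keap1 and is itself a target of NRF2, had the smallest p-values of the 32 genes in both comparisons. Its fitted mean was 12571 in control and 14374 with bufalin, a fold of 1.14 (interval 1.05 to 1.25). In the periplocin table the means were 12180 and 13711, a fold of 1.13 (interval 1.05 to 1.21). The log2 change with bufalin was 0.19 ± 0.06 (SE) in the authors' deposited table, with an unadjusted p of 0.00290 and an adjusted p of 0.224. For periplocin the authors' deposited table gave 0.17 ± 0.05, with an unadjusted p of 0.000751 and an adjusted p of 0.0944. Both treated means were above control, and neither passed the adjusted threshold. The comparisons share their control libraries, so these are not separate observations of a rise.

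Of the haem and quinone targets, Hmox1 had the largest estimate with bufalin and the least certain one. It encodes the oxygenase that breaks down haem and is among the strongest targets of NRF2. Its fitted mean was 4302 in control and 9330 with bufalin, a fold of 2.17 with an interval of 1.03 to 4.58. With periplocin the means were 4168 and 5705, a fold of 1.37 with an interval of 0.747 to 2.51. In the authors' deposited table the log2 changes were 1.12 ± 0.55 (SE) with bufalin, at an unadjusted p of 0.0421 and an adjusted p of 0.503, and 0.45 ± 0.45 with periplocin, at an adjusted p of 0.991. An SE of this size reflects a wide spread between libraries.

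The SE of Hmox1 in the bufalin table was larger than that of 99.8% of the 1870 genes with a mean within a factor of 2 of its own, whose median SE was 0.07. In the periplocin table it was larger than that of 99.9% of 2328 such genes, with a median of 0.06. The spread was also expressed as a coefficient of variation (CV) between libraries beyond counting noise, taken as equal in both groups. With 3 libraries assumed per group, that of Hmox1 was 46.6% with bufalin and 37.8% with periplocin. The other 30 genes with a mean of at least 200 had CVs of 3.97% to 14.3% and of 3.24% to 12.5%. These CVs are solved from the SE of the authors' model and are not the measured spread of single libraries. Which library or group carried the spread of Hmox1 was not tested, since values per library were not analysed here.

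**Figure D2:**
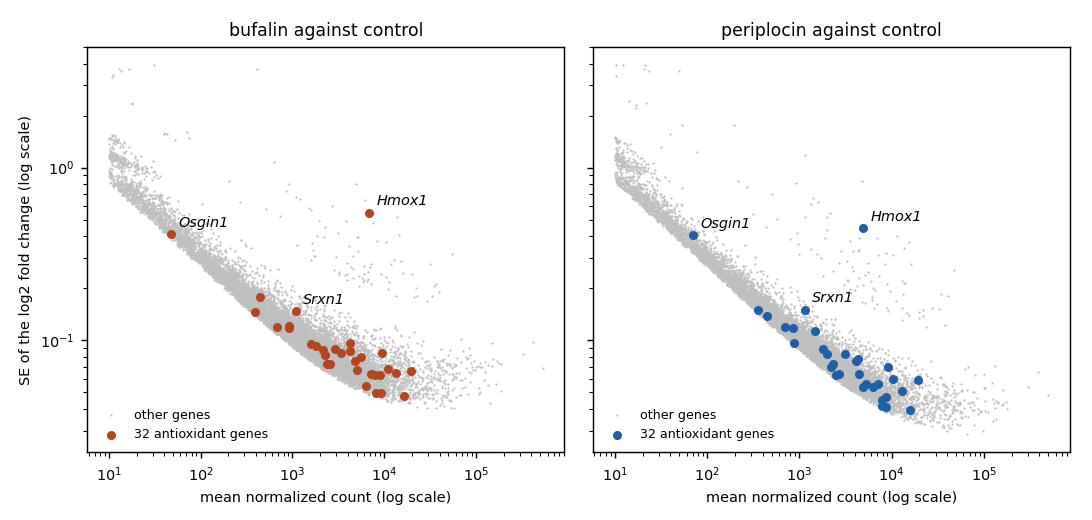
SE of the log2 fold change against mean normalized count, both on log scales, for genes with a mean of at least 10; grey points are other genes and coloured points the 32 antioxidant genes. Hmox1 lies far above genes of like mean in both comparisons, while Osgin1 lies among them at a low count.

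Nqo1, a quinone reductase and a classical NRF2 target, stood at 2799 in control and 2986 with bufalin, a fold of 1.07 (interval 0.945 to 1.20). With periplocin its means were 2712 and 2662, a fold of 0.982 (interval 0.900 to 1.07). Osgin1, a growth inhibitor induced by oxidative stress, was the least abundant of the 32 in counts. Its fitted mean was 49.4 in control and 46.5 with bufalin, a fold of 0.940 (interval 0.537 to 1.65). In the periplocin table it went from 48.0 to 93.5, a fold of 1.95 (interval 1.12 to 3.38), with a log2 change of 0.96 ± 0.41 (SE), an unadjusted p of 0.0174 and an adjusted p of 0.533 in the authors' deposited table. At this count the SE was 0.41 in both comparisons in the authors' deposited table, which limits the size of change that could be seen.

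The glutathione genes lay near control. Slc7a11, which imports cystine for glutathione synthesis, had a fold of 0.985 (interval 0.866 to 1.12) with bufalin and 0.904 (interval 0.775 to 1.06) with periplocin. For Gclc, the catalytic subunit of glutamate cysteine ligase, means were 3997 in control and 4376 with bufalin, a fold of 1.09 (interval 0.973 to 1.23). With periplocin Gclc stood at 3873 and 4324, a fold of 1.12 (interval 1.01 to 1.24), and the authors' deposited table gave 0.16 ± 0.08 (SE, log2), an unadjusted p of 0.0361 and an adjusted p of 0.704. Gclm, the modifier subunit, stood at 1.07-fold (interval 0.881 to 1.31) and 0.947-fold (interval 0.773 to 1.16), with intervals that included no change in both comparisons.

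Gsr, which reduces oxidised glutathione, had folds of 0.959 with bufalin and 0.933 with periplocin. The peroxidase Gpx1 stood at 1.02 and 1.09, and Gpx4, which reduces lipid peroxides in membranes, at 0.960 (interval 0.876 to 1.05) and 0.965 (interval 0.897 to 1.04). Of the transferases, which couple glutathione to reactive chemicals, Mgst1 had folds of 0.945 and 0.896, Gstp1 of 0.977 and 0.985 and Gsta4 of 1.01 and 0.927, in the same order of compounds. All of these intervals included no change. Gstp1 and Gsta4 belong to gene families, and their levels are uncertain if relatives share reads, which was not measured.

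Of the 8 thioredoxin genes 6 lay below control with each compound, by small amounts. Above control lay 25% of them, where 50.4% and 50.5% of all genes did, and the comparisons share their controls. By the authors' Wald test 1 of the 8 had an unadjusted p under 0.05 with each compound, Prdx6 with bufalin and Prdx2 with periplocin. Thioredoxin itself, Txn1, had folds of 0.938 and 0.970 with bufalin and periplocin, and its reductase Txnrd1 of 1.01 (interval 0.921 to 1.10) and 1.03 (interval 0.950 to 1.11). Srxn1, the sulfiredoxin that repairs over-oxidised peroxiredoxins, stood at 1104 in control and 1074 with bufalin, a fold of 0.973 (interval 0.797 to 1.19). With periplocin its means were 1070 and 1244, a fold of 1.16 (interval 0.948 to 1.43).

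The peroxiredoxins, which reduce peroxides with the help of thioredoxin or, for Prdx6, glutathione, lay below or close to control. With bufalin Prdx6 stood at 1929 in control and 1670 in treated cells, a fold of 0.865 (interval 0.763 to 0.982). Its log2 change was -0.21 ± 0.09 (SE) and its unadjusted p 0.0249 in the authors' deposited table, and adjusted anew across all tested genes it was 0.955. With periplocin Prdx6 had a fold of 0.951 (interval 0.843 to 1.07). Prdx2 stood at 0.940 (interval 0.863 to 1.02) and 0.936 (interval 0.878 to 0.999), with a log2 change of -0.09 ± 0.05 (SE), an unadjusted p of 0.0450 and an adjusted p of 0.744 for periplocin in the authors' deposited table. Prdx1 had folds of 0.954 and 0.970, the mitochondrial Prdx3 of 0.928 and 0.976, and Prdx5 of 1.05 and 0.995.

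The 4 NADPH genes had median SEs of 0.06 with bufalin and 0.04 with periplocin, smaller than those of any other role. Tkt, the transketolase of the pentose phosphate pathway, stood at 7927 in control and 8485 with bufalin, a fold of 1.07 (log2 interval 0.00 to 0.20), with 0.10 ± 0.05 (SE, log2), an unadjusted p of 0.0489 and an adjusted p of 0.512 in the authors' deposited table. With periplocin its fold was 1.04 (interval 0.982 to 1.10). Me1, the cytosolic malic enzyme, went from 4550 to 3987 with bufalin, a fold of 0.876 (interval 0.769 to 0.999), with -0.19 ± 0.10 (SE, log2), an unadjusted p of 0.0480 and an adjusted p of 0.512 in the authors' deposited table. With periplocin it stood at 0.980 (interval 0.882 to 1.09). Pgd, which makes NADPH from phosphogluconate, had folds of 0.994 and 1.05, and the transaldolase Taldo1 of 1.02 and 0.967. Tkt and Me1 thus lay on opposite sides of control with bufalin.

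The superoxide dismutases and catalase had estimates above control with bufalin in 3 of 3 genes, where 50.4% of all genes lay above it. The largest of the 3 folds was 1.08. Sod1, the cytosolic dismutase, went from 15900 to 16887, a fold of 1.06 (interval 0.996 to 1.13). Sod2, the mitochondrial dismutase, stood at 1.08 (interval 0.960 to 1.21) and Cat at 1.05 (interval 0.950 to 1.17). With periplocin their folds were 1.03, 0.968 and 0.941. Of the ferroptosis genes, Acsl4, which places polyunsaturated fatty acids into membranes, stood at 1.01 and 1.07. Aifm2, the ubiquinone reductase that shields membranes from peroxidation, stood at 1.06 (interval 0.963 to 1.18) and 1.09 (interval 0.999 to 1.19).

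The 8 genes with the core element in the promoter had median log2 changes of 0.04 with bufalin and -0.03 with periplocin. For the 21 matched genes without it in the bases searched, the medians were 0.02 and 0.02. This split does not separate genes bound by NRF2 from others, as binding was not measured. Estimates of the 8 ran from -0.19 to 0.12 and from -0.08 to 0.06, so both ranges spanned 0.

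The compounds were then set against each other through the control they share, with an approximate Wald test over 10602 genes. Of the 32 genes 0 passed an adjusted p of 0.05, where 0.396% of all genes did, and the smallest adjusted p was 0.471. At an unadjusted p under 0.05 stood 2 of the 32, where 6.34% of all genes did. Those were Osgin1, with a bufalin minus periplocin difference of -1.05 ± 0.40 (SE, log2; interval -1.85 to -0.26), and Cat, at 0.16 ± 0.07 (interval 0.03 to 0.30). Hmox1 differed by 0.66, and its interval of -0.32 to 1.64 included 0.

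For 30 of the 32 genes the interval of the difference lay within 1.5-fold in either direction. That of Sqstm1 was 0.02 with an interval of -0.09 to 0.14, that of Nfe2l2 0.05 with -0.08 to 0.19, and that of Txnrd1 -0.03 with -0.15 to 0.09. Keap1 differed by -0.17 with -0.41 to 0.06, and Srxn1 by -0.26 with -0.55 to 0.03. The compounds were thus not shown to differ in any of the 32 genes, and only for Hmox1 and Osgin1 does this interval reach beyond 1.5-fold. These intervals use the approximate SE, and those from its upper bound would be wider. The doses behind the values are not in the labels, so a match of dose is not known.

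**Figure D3:**
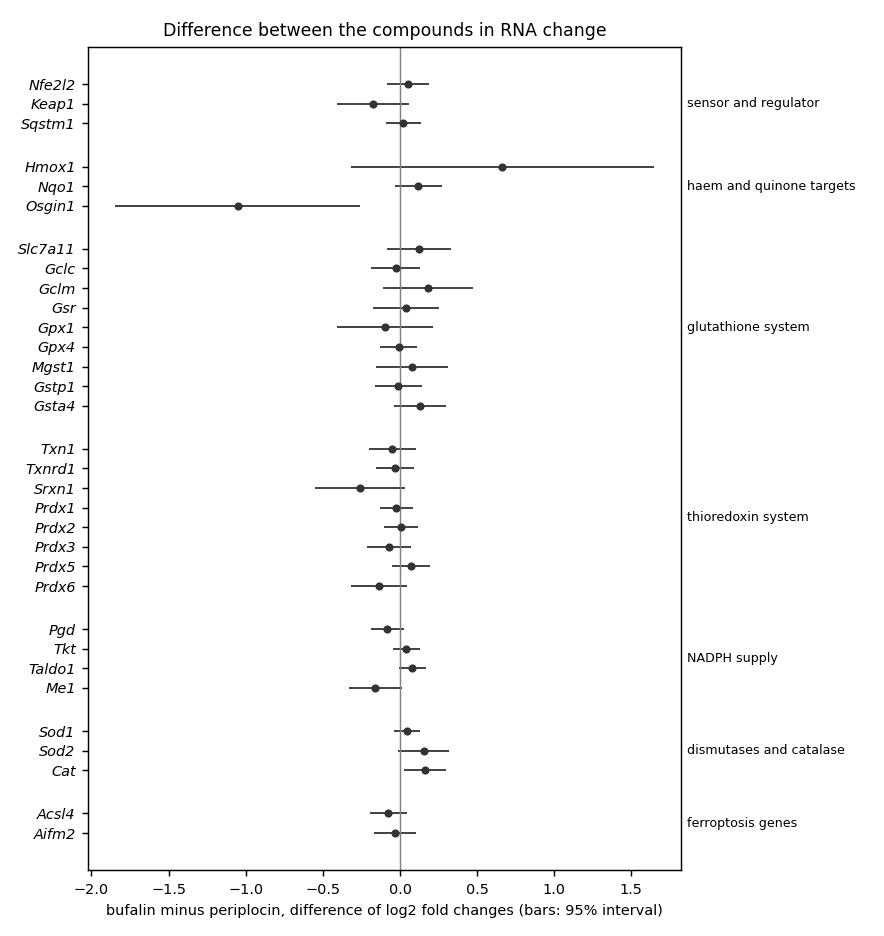
Difference of the log2 fold changes, bufalin minus periplocin, for the 32 genes by role, with 95% intervals from the approximate Wald test. The bars of 30 genes cross 0; those of Osgin1 and Cat do not, and neither passed the adjusted test.

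The wider pathway gave 1 call. Calls here use the adjusted p, deposited or recomputed over all tested genes, by DESeq2's Wald test. With bufalin many genes of these lists had only the recomputed one. By the recomputed one 12 of 12876 genes passed with bufalin and 67 of 12906 with periplocin. Of 15 regulators around NRF2, such as small Maf proteins, Bach repressors and the Cul3 ligase, 0 passed in either comparison. An unadjusted p under 0.05 was found for 1 of 15 with bufalin, or 6.67%, where 5.00% of all genes had one, and for 4 of 15 with periplocin, or 26.7%, where 6.25% did. Those all-gene shares hold for the lists that follow, where counts are given for bufalin and then periplocin. The lists were chosen with earlier results of these data known, so their shares are no test against all genes. Maff, a small Maf partner of NRF2, stood at 1.21-fold with periplocin (interval 1.09 to 1.35), with an adjusted p of 0.0571 in the authors' deposited table. Its relative Mafk stood at 1.13-fold (interval 1.05 to 1.21), with an adjusted p of 0.115 in the authors' deposited table, and Dpp3, a peptidase that binds Keap1, at 1.08-fold. Nfe2l1, a relative of NRF2 that governs proteasome genes, stood at 1.14-fold with bufalin (interval 1.05 to 1.23), at an adjusted p of 0.148 in the authors' deposited table. The median log2 change of these 15 genes was 0.03 with bufalin and 0.05 with periplocin.

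Of 25 measured further targets and detoxification genes 0 passed (unadjusted p under 0.05 in 0 and 2), with medians of 0.02 and -0.03. Abcc5, an export pump, had the smallest p with periplocin at 1.11-fold (interval 1.03 to 1.18), and Akr1b8, an aldo-keto reductase, stood at 1.10-fold. Glutathione synthesis and transferase genes outside the 32 had 27 measured and 0 passing (unadjusted p under 0.05 in 2 and 1), with medians of 0.05 and -0.01. Here Slc3a2, the chain that pairs with Slc7a11, stood at 1.13-fold with bufalin (interval 1.01 to 1.28) and the glutamine importer Slc1a5 at 0.818-fold (interval 0.696 to 0.961), and neither passed. With periplocin Cth, which makes cysteine, stood at 0.830-fold. Of 25 further thioredoxin, peroxidase and dismutase genes 0 passed (unadjusted p under 0.05 in 1 and 2), with medians of 0.02 and -0.04. Those were Txndc17 at 0.871-fold with bufalin, and with periplocin Sesn2 at 1.19-fold and Txnip, which binds thioredoxin, at 0.633-fold (interval 0.413 to 0.969).

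Of 12 measured further NADPH genes 0 passed (unadjusted p under 0.05 in 3 and 2), with medians of -0.05 and -0.08. Above control lay 2 of 12, or 16.7%, with each compound, where 50.4% and 50.5% of all genes did, and the comparisons share their controls. Nnt, the mitochondrial transhydrogenase that makes NADPH, stood at 0.890-fold with bufalin (interval 0.820 to 0.966) and 0.910-fold with periplocin (interval 0.855 to 0.968). Its adjusted p-values in the authors' deposited table were 0.285 and 0.215. Idh2, the mitochondrial isocitrate dehydrogenase, stood at 0.913 and 0.937, and Pgls, of the pentose phosphate pathway, at 0.783-fold with bufalin (interval 0.659 to 0.932). Of ferroptosis genes 0 of 19 passed with bufalin. Only 6 of these 19 had a deposited adjusted p, and of all genes with one 0.301% passed. With periplocin 1 of 20 passed, where 0.538% of all genes with a deposited adjusted p did. An unadjusted p under 0.05 was found for 1 and 3, and the medians were -0.02 and -0.02. The gene called with periplocin was the small heat shock protein Hspb1, which fell to 0.868-fold (interval 0.808 to 0.933; adjusted p 0.0260 in the authors' deposited table). With bufalin Hspb1 stood at 0.902-fold (interval 0.834 to 0.976), at an adjusted p of 0.381 in the authors' deposited table. Selenoprotein genes had 16 measured and 0 passing (unadjusted p under 0.05 in 0 and 1), with medians of 0.02 and -0.04 and Selenos at 1.14-fold with periplocin. Enzymes that make oxidants had 14 measured and 0 passing (unadjusted p under 0.05 in 0 with each compound), with medians of 0.03 and 0.03.

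m6A peaks were listed on a minority of the antioxidant genes. In the bufalin list 9 of 32 genes, or 28.1%, held a peak, and in the periplocin list 10 of 32, or 31.2%. Of all tested genes 39.7% and 37.8% held one. By level the share rose up to means of 8192 to 16384, where it was 75.6% and 73.2%, and was 68.6% and 65.6% in the highest bin. Among genes within a factor of 2 of the level of each antioxidant gene, the mean share over the 32 was 64.7% in the bufalin list and 62.6% in the periplocin list. Transcript length, which also bears on the number of peaks, was not analysed here, and whether it or another property goes with the low share was not tested.

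Genes with a peak in either list were Nfe2l2 and Keap1 among the sensor and its regulators, Slc7a11, Gclc and Gsta4 in the glutathione system, Srxn1 and Txnrd1 in the thioredoxin system, Me1, Acsl4 and Aifm2. The other 22 genes held none in either list. Among these were all 3 haem and quinone targets Hmox1, Nqo1 and Osgin1, Sqstm1, and all 3 of Sod1, Sod2 and Cat.

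**Figure D4:**
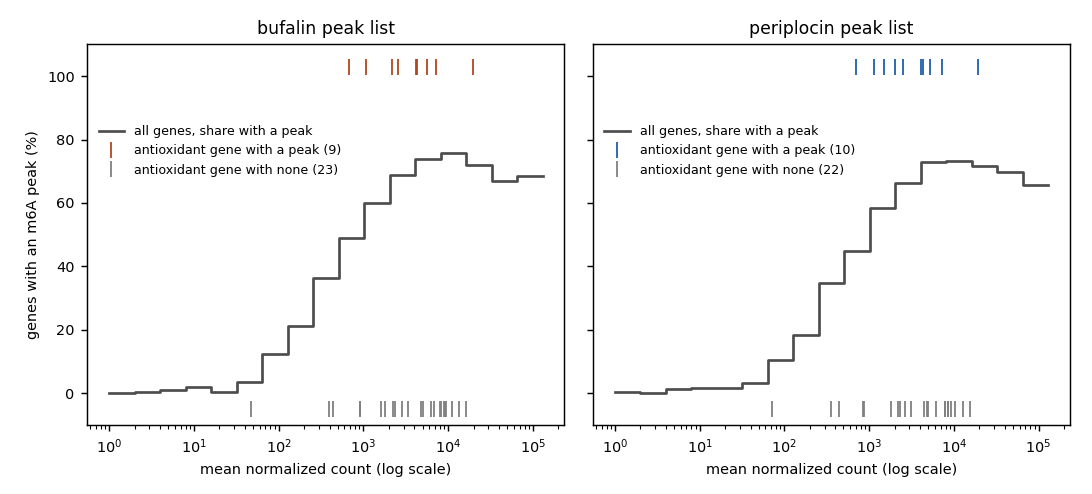
Share of genes with at least 1 m6A peak (percent) against mean normalized count on a log scale, in bins of a factor of 2; ticks at the top mark antioxidant genes with a peak and ticks at the bottom those with none. The share of all genes rises to 75.6% in the bufalin list and 73.2% in the periplocin list, while 9 and 10 of the 32 antioxidant genes have a peak.

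Peak positions are those of the authors on build rn6, written from 1, and where a peak has several blocks the span holds introns. The fold enrichment is the authors' own value for a peak, read as IP over input. Over the antioxidant peaks it ran from 1.12 to 2.75 with a median of 1.73 in the bufalin list, where all peaks had a median of 1.82. In the periplocin list it ran from 1.27 to 2.87 with a median of 1.68, where all peaks had a median of 1.80. The position of peaks within transcripts was not analysed here.

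Of the antioxidant peaks 11 were found in both lists, which is 73.3% of those in the bufalin list and 84.6% of those in the periplocin list. Of all peaks 83.0% and 89.4% were found in both. The lists share their control libraries, so a peak in both is not 2 separate observations, and the overlap was not tested. The most enriched was on Aifm2 (chr20:31350581-31350730, plus strand), at 2.75 in the bufalin list and 2.87 in the periplocin list. A second peak of Aifm2 (chr20:31351622-31351721) had 1.47 and 1.54. The peak of Gsta4 (chr8:85504646-85511133, plus strand, 3 blocks) stood at 2.72 and 2.43. Nfe2l2 held 1 peak (chr3:62498257-62498355, minus strand) at 2.24 and 2.20, so the RNA of NRF2 itself carried a peak of nearly the same enrichment in both lists.

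Gclc held 3 peaks on the plus strand, the most of any antioxidant gene in either list. The first (chr8:85059201-85078630) had 1.37 and 1.41, the second (chr8:85084488-85088775 in the bufalin list) 1.67 and 1.87, and the third (chr8:85095097-85096421 in the bufalin list) 1.73 and 2.47. Keap1 held 2 peaks in the bufalin list (chr8:22251160-22251358 and chr8:22251456-22251605, minus strand), at 2.07 and 1.73. In the periplocin list it held 1 other peak (chr8:22250913-22251012) at 1.27, and none of these overlapped. Absence from a list means only that a region was not called there.

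The remaining shared peaks were those of Acsl4 (chrX:113598941-113599040), at 1.74 and 1.46, Me1 (chr8:94258326-94261684), at 1.79 and 1.69, Srxn1 (chr3:147612079-147612178 in the bufalin list), at 1.61 and 1.63, and Txnrd1 (chr7:26947574-26947724), at 1.79 and 1.68. A further peak of Srxn1 at 1.23 and one of Txnrd1 at 1.12 were listed with bufalin only, and one of Slc7a11 at 1.30 with periplocin only. Their enrichment lay at percentiles 3.44, 0.557 and 7.59 of their lists, near the low end.

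No antioxidant peak passed an FDR of 0.05 for a change in m6A, by the authors' test as deposited. With bufalin it was 0 of 15, where 0.0304% of all peaks passed, and with periplocin 0 of 13, where 0.0436% did. At an unadjusted p under 0.05 stood 0 of 15, where 3.04% of all peaks did, and 0 of 13, where 3.37% did. The median log2 change, read as treated over control, was -0.04 in both, and that over all peaks was -0.02 with bufalin and -0.01 with periplocin. With bufalin 7 of 15 changes lay above 0 and with periplocin 5 of 13.

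The peaks nearest to the threshold were on Aifm2 and Gclc. The second peak of Aifm2 had a log2 change of -0.48 with bufalin (unadjusted p 0.136, authors' deposited table) and -0.69 with periplocin (unadjusted p 0.0575, authors' deposited table). The second peak of Gclc had -0.29 with bufalin (unadjusted p 0.0912, authors' deposited table) and -0.32 with periplocin (unadjusted p 0.305, authors' deposited table). The third peak of Gclc had -0.12 and 0.17, so its estimates lay on opposite sides of control, with unadjusted p of 0.782 and 0.0759 in the authors' deposited table. For the peak of Nfe2l2 the changes were -0.10 and -0.13. The lists give no standard error of these changes, so no interval can be set on them, and both comparisons share the control libraries.

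**Figure D5:**
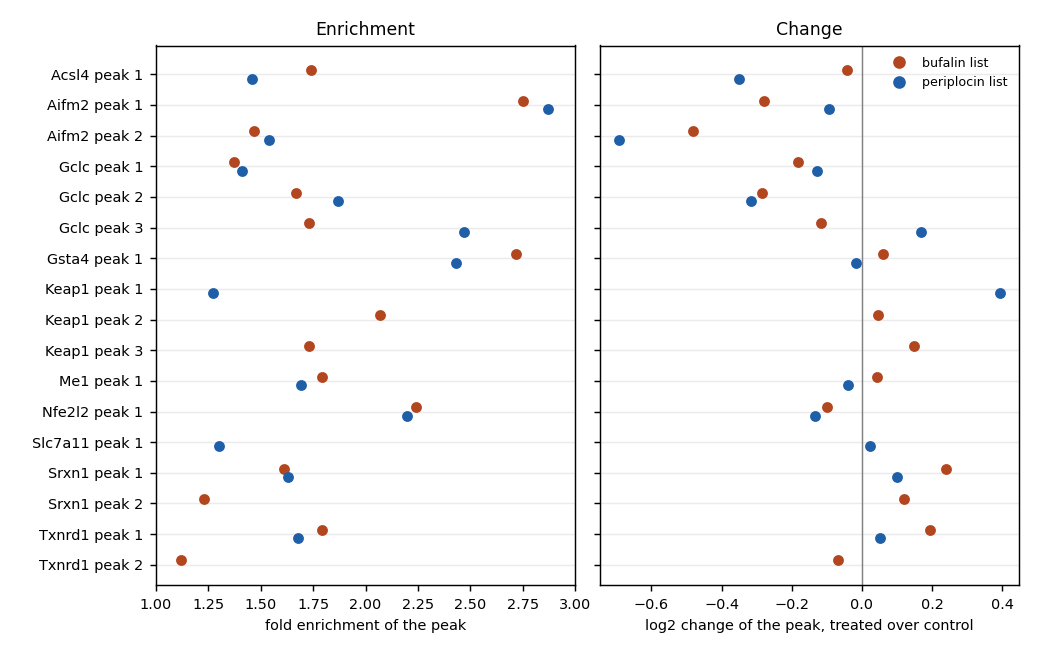
Fold enrichment (left) and log2 change, treated over control (right), of each antioxidant peak, with bufalin in red and periplocin in blue; peaks of a gene are numbered by position. Enrichment ran from 1.12 to 2.87, and changes scattered around 0, with the second peak of Aifm2 lowest in both lists.

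The other shared peaks had log2 changes, with bufalin and then periplocin, of -0.28 and -0.09 for the first peak of Aifm2, -0.18 and -0.13 for the first of Gclc and -0.04 and -0.35 for Acsl4. Those of Srxn1 had 0.24 and 0.10 and those of Txnrd1 0.19 and 0.05. Gsta4 had 0.06 and -0.02, and Me1 0.04 and -0.04. Of the peaks in 1 list, those of Keap1 had 0.05 and 0.15 in the bufalin list and 0.39 in the periplocin list. The further peak of Srxn1 had 0.12, that of Txnrd1 -0.07 and that of Slc7a11 0.02. None of the 32 genes passed the adjusted test in RNA, and none of their peaks did in m6A.

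Of the 8 wider lists no peak passed an FDR of 0.05 for a change in either comparison. By the authors' test as deposited, 2 of 70 peaks with bufalin, or 2.86%, had an unadjusted p under 0.05, where 3.04% of all peaks did. With periplocin it was 5 of 65, or 7.69%, where 3.37% of all peaks did, and each of these peaks had an FDR of 1. With bufalin the peak of Sesn3, a stress-induced sestrin, had a log2 change of 0.51 and that of Selenot, a selenoprotein, -0.38. With periplocin the peak of Sesn2, another sestrin, had 0.73. Those of Nfe2l1, Glrx3, a glutaredoxin, and Acsl3, an acyl-CoA synthetase, had 0.12, -0.19 and -0.27. These genes were named after their values were seen.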

How the data were processed

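RNA of H9c2 cells was measured in 18 samples of 6 groups, taken from the titles in the labels. Libraries were stranded and carried molecular identifiers, per the labels' protocols. Build rn6 and the tools HISAT2, StringTie and DESeq come from the submitters' processing notes. No version is stated there, and no source used here names the peak caller. The authors deposited 1 table per compound of mean normalized counts (a signal, counts divided by size factors), log2 fold changes with SE, a Wald score, p-values and adjusted p-values. They also deposited peak lists with p-values and log10 p and FDR, a fold enrichment ratio and the log2 change, where some log10 values in the periplocin list are so low that the column was treated as a score. Depth per library is unknown here, and precision is given by the SE.

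Signs were taken from the fold changes, since the Wald score of the periplocin table has the opposite sign in all 12913 genes. Control means worked out from both tables matched within 1% for 10602 of 10602 genes once a shift of 0.05 (log2) was removed, taking each change as treated over control, and in at most 1157 with 1 or both turned. For m6A no direction is given, and changes were read likewise. Adjusted p-values in the bufalin table cover only genes whose mean reached 2259.

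The planned test between the compounds used the difference of log2 fold changes for genes whose mean reached 10 in both tables. Its SE joins the spread between libraries, solved from each SE, with the treated groups' counting noise. This assumes 3 libraries per group in the authors' tables, which is not stated for them. The test is approximate. It was run on simulated data whose SEs were built from the known spread. How well the spread is solved from an estimated SE was therefore not tested. Peaks were paired when their blocks shared 1 base on the same strand. Genes were named by a rule, except markers and those the text says were named after their values were seen: all 32 members, and up to 3 genes per list and comparison, called or with the smallest p under 0.05 and a mean of at least 10. Members and lists were chosen with earlier results of these data known. RefSeq tables of GRCr8 gave promoters only. Alternatives covered adjustment, thresholds and filters. Scripts ran in Python 3.11.15 with scipy 1.17.1, pandas 2.3.3, matplotlib 3.10.9 and numpy 2.4.6. One peak of the wider lists is not reported here.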

Additional observations from a re-analysis of the deposited data

How the results depend on the processing

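Counts of called antioxidant genes stayed at 0 for both compounds with the adjusted p recomputed over all tested genes and over those whose mean reached 10 or 200. At an unadjusted p under 0.05 the count was 5 with bufalin, 4 with periplocin and 2 between the compounds. At a deposited adjusted p under 0.1 it was 0 with bufalin and 1, Sqstm1, with periplocin. The adjusted p of Sqstm1 ranged from 0.224 to 0.533 with bufalin and from 0.0773 to 0.0979 with periplocin. Between the compounds the count was 0 for means from 50 and 0 with the upper bound on the SE, where 8 of 10602 genes were called. With that upper bound 0 of the 32 had an unadjusted p under 0.05 in the approximate Wald test, where 163 of 10602 genes did. Called m6A peaks stayed at 0 at an FDR under 0.1 and at an unadjusted p under 0.05. Stricter limits on enrichment could add no call. Shares of all genes and peaks at the limits of 0.1 are not given here. In the comparison of lists, 11 peaks of the bufalin list were in both lists also under the stricter overlap. No paired analysis was possible because the deposited tables hold comparisons and no values per library, and for the same reason replicates were not left out 1 by 1. The 11 genes without an adjusted p with bufalin were below the level at which the authors' table gives one.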

Other observations

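The wide spread of Hmox1 between libraries was shared with few genes. Of the 8422 genes whose mean reached 200 in both tables, 28, or 0.332%, had a CV between libraries above 25% in both comparisons, a limit chosen after the values were seen, and the median CV of all was 7.85% and 6.98%. Among the 31 antioxidant genes tested this held for 1, Hmox1. The highest CVs in both comparisons, in genes named after their values were seen, were those of Moap1 (91.4% with bufalin and 100.3% with periplocin), Cebpb (68.5% and 71.3%), Fam110a (70.9% and 70.8%) and Rpp14 (68.0% and 68.8%). As the comparisons share the control libraries, both CVs of a gene rest partly on the same values.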
